A study of Mus musculus with 2 samples.

Results

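The 10 genes described here encode proteins that make, or respond to, prostaglandins and leukotrienes, and they were picked by exact match of their gene symbol, out of 32285 genes counted. They are Ptgs1 and Ptgs2, the cyclooxygenases; Ptges and Hpgds, synthases of prostaglandin E2 and prostaglandin D2; Alox5, Alox5ap, Lta4h and Ltc4s, which act in leukotriene synthesis; the lipoxygenase Alox15; and Ptger4. All 10 symbols were found once in both libraries. Ptger4 is a receptor and Alox5ap a helper protein, so 8 of the 10 are enzymes.

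Eicosanoids are lipid mediators made from arachidonic acid that phospholipases release from membranes. Cyclooxygenases turn it into prostaglandin H2, from which terminal synthases make the individual prostaglandins. 5-lipoxygenase, presented with its substrate by the protein that Alox5ap encodes, turns it into leukotriene A4, the precursor of leukotriene B4, a neutrophil attractant, and of the cysteinyl leukotrienes. In periodontitis, the inflammation of the tissue around the teeth, prostaglandin E2 is a known mediator of bone loss.

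The study profiled sorted single cells of mouse gingiva to ask how diabetes affects the host response in periodontitis. There were 2 libraries, 1 from diabetic mice, in which streptozotocin, a toxin of pancreatic beta cells, had induced type I diabetes, and 1 from normoglycemic mice. Both groups carried the genotype CD11CCre-/-;FoxoLL, in which loxP sites flank an exon of Foxo1 but no Cre is present, so that their Foxo1 protein was normal per the labels, on a mixed C57B6 and FVB background. In both, bacterially induced inflammation lasted 2 weeks, followed by 2 weeks of waiting; CD45+ cells, cleared of dead, CD31+ and Ter-119+ cells and with 20% enrichment of CD11c+ cells, were then loaded, 10000 per lane. Each library was a pool of 4 mice with no replicate library, so no p-value is given, and every interval below is a 95% interval that covers counting error only, not the spread between mice.

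The diabetic library held 10496 barcodes and 78220582 unique molecule counts (UMIs), and the normoglycemic library 11280 barcodes and 89339733 UMIs. Filtering left 10220 diabetic and 10948 normoglycemic cells, whose median depth was 4622 and 5303 UMIs, and 32 barcode sequences occurred in both libraries. Cells were grouped from all genes other than these 10 and named from marker genes, so that a name such as macrophages means macrophage-like by markers; 11 classes had at least 20 cells in each library. Although the sort was for CD45+ cells, 901 diabetic and 61 normoglycemic cells carried fibroblast, mural, Schwann or epithelial markers. Bpifa2, a secretory epithelial transcript, was present at 22.5 to 142 CPM (counts in 1000000 counts) in every diabetic class and at most at 1.11 CPM in any normoglycemic class. The mix of sexes also differed: by Y-linked genes and Xist, 3960 diabetic and 5334 normoglycemic cells were called male, and 1847 diabetic and 1529 normoglycemic cells female. Levels below are CPM of the summed counts of a class, and a level cannot tell fewer producing cells from less RNA per cell except where shares of cells are given.

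The 10 genes were spread unevenly over the leukocytes. Among classes of at least 100 cells in each library, the highest mean level was in macrophages for Ptgs1, Hpgds, Alox5, Ltc4s and Ptger4, in monocytes for Ptgs2 and Ptges, in neutrophils for Alox5ap, in conventional dendritic cells for Alox15 and in alpha-beta T or NK cells for Lta4h. This is a mean over both libraries, whose orders differ. In the normoglycemic library alone Alox5ap was higher in conventional dendritic cells (825 CPM) and monocytes (790 CPM) than in neutrophils (585 CPM), and Ptgs1 (34.1 against 29.8 CPM) and Ltc4s (62.0 against 51.7 CPM) were higher in conventional dendritic cells than in macrophages. A ratio between the libraries was read as past the threshold when it reached 1.5-fold either way with at least 10 CPM and 20 counts in 1 library; 61 of 110 gene and class pairs reached that level in 1 library. Of these 61 pairs, 7 were past it upwards in the diabetic library and 19 downwards, where the same rule called 8.38% of all gene and class pairs higher and 14.8% lower. In the 4 large myeloid classes 4 pairs were higher and 5 lower of 26, where 6.48% and 6.80% of all gene and class pairs were. In the other 7 classes 3 were higher and 14 lower of 35, where 9.52% and 19.6% of all pairs were.

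**Figure D1:**
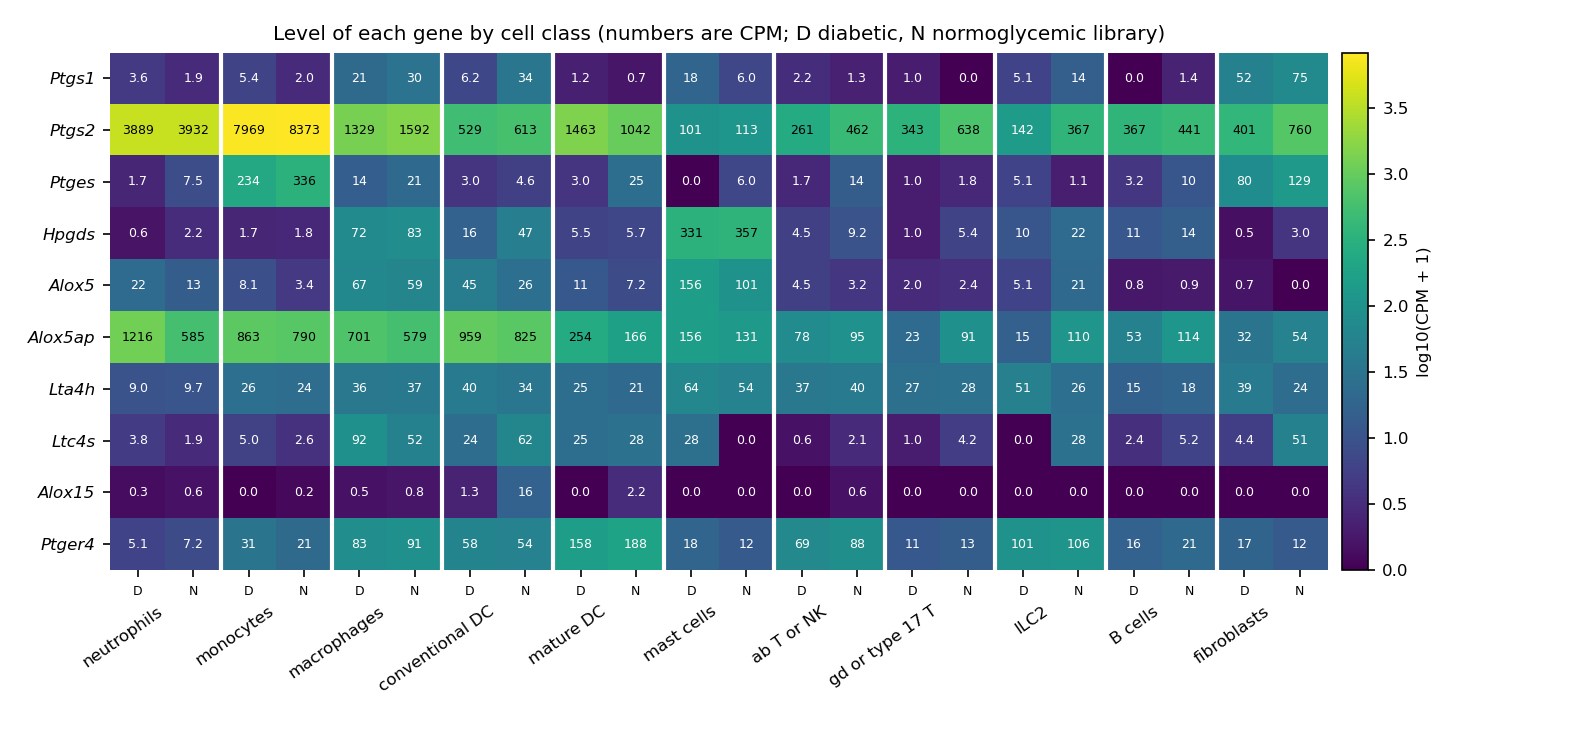
Level of each of the 10 genes in the 11 cell classes, diabetic column left of normoglycemic; colour is log10(CPM + 1) and the printed number is the CPM. Ptgs2 reached 7969 CPM in diabetic and 8373 CPM in normoglycemic monocytes, and Hpgds 331 and 357 CPM in mast cells.

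**Figure D2:**
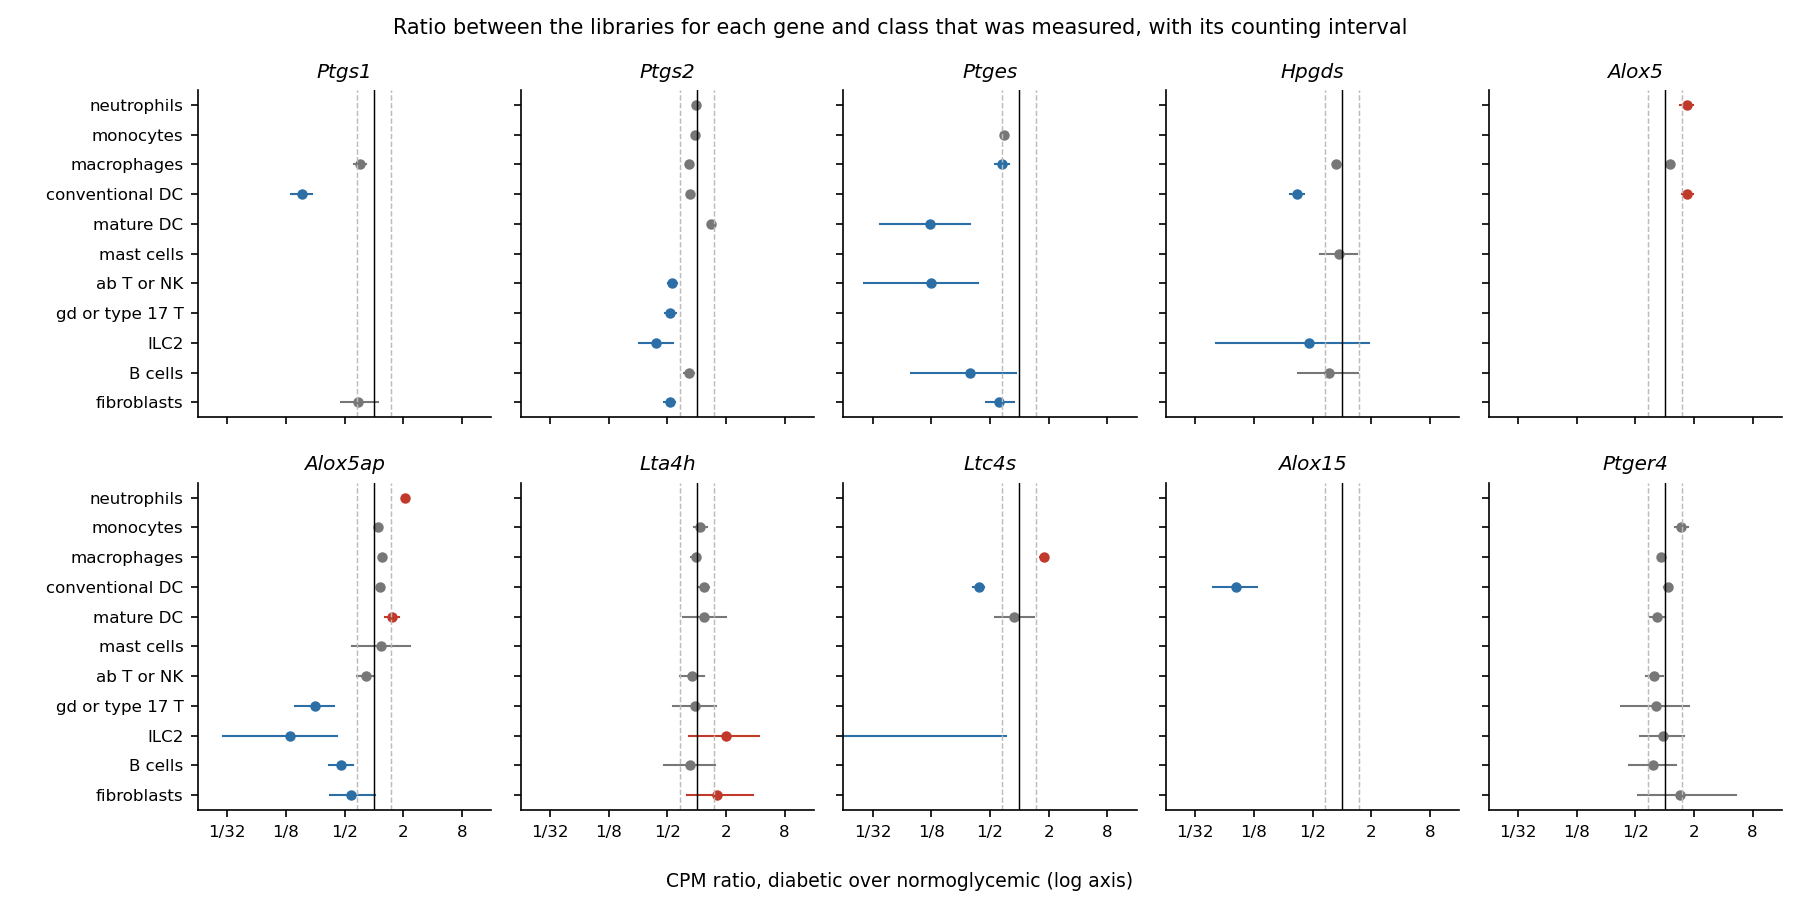
Ratio of the diabetic to the normoglycemic level (log axis) for each gene in each class, with its 95% counting interval; dashed lines mark 1.5-fold, red points are past it upwards, blue points downwards, grey points are past neither line, and pairs under the level rule are blank; Ltc4s in type 2 innate lymphoid cells has an interval only, with 0 diabetic counts. Alox5ap in neutrophils stands at 2.08 and Alox15 in conventional dendritic cells at 0.0826.

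Ptgs2 (chr1:150100031-150108227, plus strand of GRCm38), the inducible cyclooxygenase, was abundant in the myeloid cells of both libraries at nearly the same level. Monocytes held 7969 CPM in the diabetic and 8373 CPM in the normoglycemic library, a ratio of 0.952 (0.944 to 0.960), and neutrophils 3889 and 3932 CPM, a ratio of 0.989 (0.979 to 0.999). Both ratios are well inside 1.5-fold. Macrophages had 1329 CPM in the diabetic and 1592 CPM in the normoglycemic library (ratio 0.835), and conventional dendritic cells 529 and 613 CPM (ratio 0.864). Mature dendritic cells were the exception in direction, with 1463 diabetic and 1042 normoglycemic CPM (ratio 1.40, 1.32 to 1.5), still under the threshold. At least 1 UMI was found in 86.2% (84.2% to 88.1%) of diabetic and 91.1% (89.4% to 92.6%) of normoglycemic monocytes and in 87.0% and 83.9% of neutrophils. B cells, which are not a known major source, had one in 22.5% of diabetic and 20.7% of normoglycemic cells. With every cell thinned to 1000 UMIs the shares were 75.6% and 81.0% in monocytes, 74.8% and 69.5% in neutrophils, and 5.62% and 7.99% in B cells, so the myeloid shares stood far above those of B cells at matched depth. Thinning left out 17 diabetic and 14 normoglycemic monocytes, 62 and 72 neutrophils, and 0 and 6 B cells.

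Most Ptgs2 and nearly all Ptges in monocytes came from 1 of the 2 monocyte clusters. That cluster, led by Ptges itself with Arg1, Saa3, Nos2 and Inhba, held 638 diabetic and 770 normoglycemic cells and had 12861 and 11386 CPM of Ptgs2. The other monocyte cluster, led by Chil3 and Vcan, had 3073 diabetic and 3419 normoglycemic CPM. The first cluster alone carried 38.9% of all Ptgs2 counts of the diabetic library and 38.5% of those of the normoglycemic library. Ptgs2 was thus concentrated to a like degree in both libraries, and a median cell of this cluster held 106 diabetic and 103 normoglycemic Ptgs2 UMIs.

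Ptges (chr2:30889471-30929863, minus strand) encodes the inducible microsomal synthase that works downstream of Ptgs2 and makes prostaglandin E2. It stood at 234 CPM in diabetic and 336 CPM in normoglycemic monocytes, a ratio of 0.697 (0.665 to 0.730), just inside the threshold. In the Arg1 and Saa3 cluster it was at 463 and 537 CPM, against 4.29 and 5.38 CPM in the Chil3 and Vcan cluster, so the order of the clusters was the same in both libraries. This cluster held 77.8% of the Ptges counts of the diabetic library and 84.3% of those of the normoglycemic library. Ptgs2 and Ptges were found together in 49.7% of its diabetic and 51.0% of its normoglycemic cells, nearly as many as had Ptges at all (50.5% and 52.1%). Ptgs2 was found in 96.7% of its diabetic and 97.5% of its normoglycemic cells. With shares so high, almost any other gene found in this cluster would overlap Ptgs2 as fully. Ptgs1 was found in 24 of its diabetic and 10 of its normoglycemic cells.

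Macrophages gave a mixed picture for Ptges. As a class they had 14.1 CPM in the diabetic and 21.2 CPM in the normoglycemic library, a ratio of 0.664 that is just past the threshold; 2.19% of all genes were higher and 3.77% lower in macrophages by the same rule, and of the 9 genes measured there 1 was higher and 1 lower. The Gpnmb and Lyve1 clusters went opposite ways: the Gpnmb cluster had 15.4 diabetic and 8.30 normoglycemic CPM, and the cluster of Lyve1, Folr2 and Cd163 had 17.9 and 45.3 CPM. In a finer grouping, 6 diabetic and 25 normoglycemic cells led by Timp1, F13a1, Serpinb2 and Ptges had 276 and 434 CPM and held 38 and 283 of the macrophage counts. The normoglycemic value of Ptges in macrophages, from 394 counts, therefore rests largely on these few cells, while most of the 210 diabetic counts came from elsewhere, 134 of them from the Gpnmb cluster. Where Ptges was scarce it was also past the threshold downwards, at 3.04 diabetic and 25.1 normoglycemic CPM in mature dendritic cells (5 and 35 counts), 1.69 and 13.5 CPM in alpha-beta T or NK cells (3 and 72 counts) and 3.24 and 10.4 CPM in B cells (4 and 22 counts). Fibroblasts had 80.5 CPM in 280 diabetic and 129 CPM in 24 normoglycemic cells (ratio 0.624, 0.453 to 0.877).

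**Figure D3:**
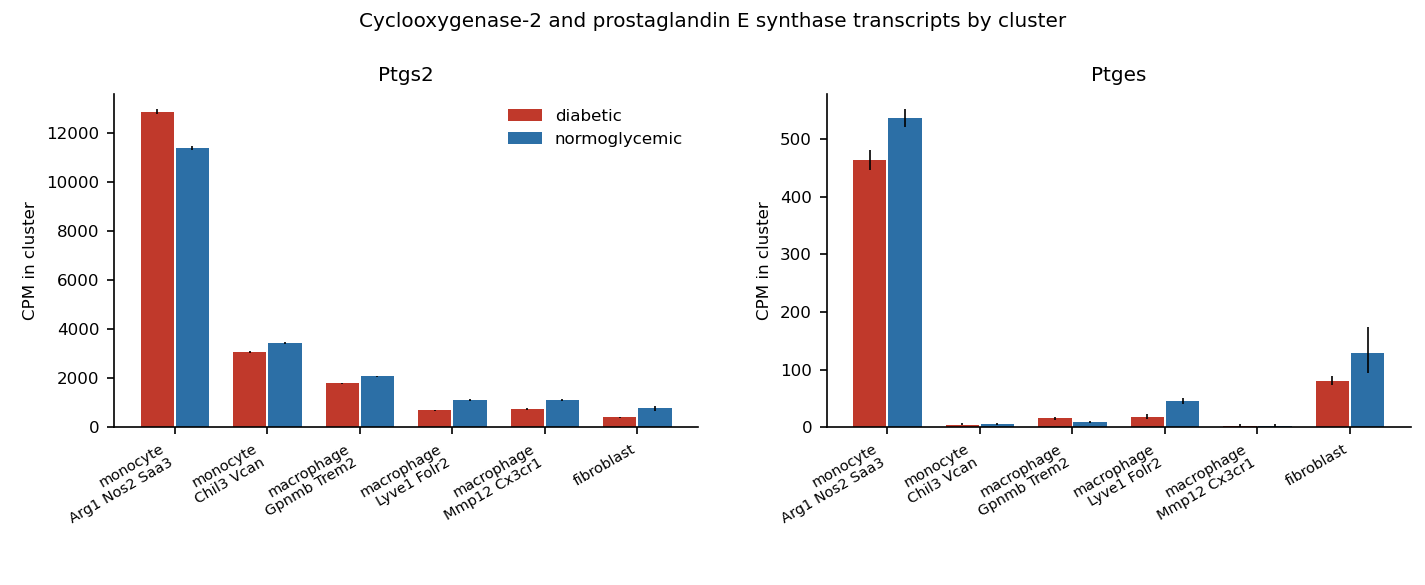
Ptgs2 and Ptges CPM with 95% Poisson intervals in the monocyte and macrophage clusters and in fibroblasts, diabetic bars left of normoglycemic bars. The Ptges, Arg1 and Saa3 cluster stands highest for both genes, at 12861 and 11386 CPM for Ptgs2 and 463 and 537 CPM for Ptges.

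Sex of the pooled cells moved with these monocyte values. In the Arg1 and Saa3 cluster 300 diabetic and 543 normoglycemic cells were called male, and 131 diabetic and 7 normoglycemic cells female. Among monocytes called male, Ptges was at 220 diabetic and 331 normoglycemic CPM and Ptgs2 at 9161 and 8706 CPM. Among monocytes called female, Ptges was at 232 diabetic and 22.9 normoglycemic CPM, the second from 15 counts in 67 cells, and Ptgs2 at 5303 and 2737 CPM. Of these female monocytes, 164 diabetic and 60 normoglycemic cells lay in the Chil3 and Vcan cluster. Within the Arg1 and Saa3 cluster, female cells had 531 and 155 CPM of Ptges and 9418 and 11152 CPM of Ptgs2. Male cells of that cluster had 425 and 510 CPM of Ptges and 14269 and 11444 CPM of Ptgs2. The Ptges ratio in monocytes is thus below 1 in male cells and above it in female cells; how far sex and the pooled animals enter the ratio was not tested.

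The promoter windows of these 2 genes are shown because they were the pair found together in the Arg1 and Saa3 cluster. RefSeq windows of GRCm38.p6, 250 bases before to 50 after the annotated start and printed 5′ to 3′ on the gene's strand, were at hand for 8 of the 10 genes. Each was searched on both strands for 9 short motifs, chosen with these sequences in view. Capitals mark the matches, the first in Ptgs2 being the C/EBP palindrome TTGCGCAA at base 182, found in 0.183% of 32851 promoter windows. The second capital run joins a short cyclic AMP response element, TGACGT (7.51% of windows), which lies on the other strand from base 263, and the E-box CACGTG (7.15% of windows) from base 267, which overlap. The Ptges window held none of the 9 motifs. Ptgs2 lies at chr1:150099781-150100080 (plus strand, 59.3% G or C) and Ptges at chr2:30903248-30903547 (minus strand, 60.0%), where the median over all windows is 52.7%. The Ptges window surrounds a RefSeq start that lies inside the GENCODE span of the gene, whose 5′ end is at 30929863. Sequence at that end was not searched.
Ptgs2: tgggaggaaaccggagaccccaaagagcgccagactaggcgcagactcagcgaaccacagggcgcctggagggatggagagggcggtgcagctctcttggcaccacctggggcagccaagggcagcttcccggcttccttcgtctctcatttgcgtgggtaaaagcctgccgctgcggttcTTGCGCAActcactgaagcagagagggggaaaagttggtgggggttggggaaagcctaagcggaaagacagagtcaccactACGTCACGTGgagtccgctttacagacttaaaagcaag
Ptges: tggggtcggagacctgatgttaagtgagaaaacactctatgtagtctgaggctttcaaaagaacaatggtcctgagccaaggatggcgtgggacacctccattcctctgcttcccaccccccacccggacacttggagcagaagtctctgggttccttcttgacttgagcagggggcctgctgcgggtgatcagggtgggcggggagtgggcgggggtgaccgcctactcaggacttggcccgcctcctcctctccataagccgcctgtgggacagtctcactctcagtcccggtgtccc
The other motifs searched were the full element TGACGTCA (1.79% of windows), the AP-1 site TGANTCA (7.81%), an NF-kB consensus (0.155%), the PU.1 core GAGGAAGT (3.20%), the GATA site AGATAA (11.2%) and the TATA sequence TATAAA (13.6%). A match describes letters only and says nothing of binding.

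Ptgs1 (chr2:36230426-36252272, plus strand), the constitutive cyclooxygenase, was low in myeloid cells, with a ratio below 1 in all 3 classes where it could be measured. Macrophages had 21.4 diabetic and 29.8 normoglycemic CPM, a ratio of 0.716 (0.622 to 0.823). Fibroblasts had 51.7 and 75.1 CPM, with an interval of the ratio (0.455 to 1.09) that includes 1. In conventional dendritic cells the values were 6.16 diabetic and 34.1 normoglycemic CPM, a ratio of 0.181 (0.141 to 0.229). Here 3.01% of all genes were past the threshold upwards and 4.82% downwards, and of the 9 genes measured 1 was higher and 4 lower. Neutrophils and monocytes stayed under the level rule, at 3.64 and 5.36 CPM in the diabetic and 1.91 and 2.03 CPM in the normoglycemic library.

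Hpgds (chr6:65117293-65144908, minus strand), the hematopoietic prostaglandin D2 synthase known from mast cells and antigen-presenting cells, had its highest level in mast cells. They held 331 CPM in 28 diabetic and 357 CPM in 41 normoglycemic cells, with a ratio of 0.926 (0.595 to 1.42), and a UMI was found in 64.3% and 63.4% of them. With so few mast cells, a ratio within that interval was not detectable as a difference; 13.3% of all genes were past the threshold upwards and 24.0% downwards there, and 0 of the 2 genes measured. Macrophages had 71.9 diabetic and 82.8 normoglycemic CPM, a ratio of 0.869 (0.803 to 0.940). Conventional dendritic cells had 16.2 diabetic and 46.8 normoglycemic CPM, a ratio of 0.346 (0.295 to 0.404), past the threshold.

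The low Ptgs1, Hpgds and Ltc4s values of diabetic conventional dendritic cells sat with 1 small group of cells. A finer grouping set apart 64 cells led by Cd207 and Epcam, 12 diabetic and 52 normoglycemic, 0.117% and 0.475% of all cells, which all fell in the conventional dendritic class and are left unnamed. In them Ptgs1 was at 270 diabetic and 584 normoglycemic CPM, Hpgds at 472 and 641 CPM, and Ltc4s at 786 and 962 CPM. Cd207 itself was at 4141 diabetic and 3675 normoglycemic CPM and Epcam at 1739 and 1638 CPM. Ptgs1, Hpgds and Ltc4s, which are themselves among the leading genes of this group, thus had lower values in its diabetic cells, with counting intervals that overlap for Ltc4s only, while Cd207 and Epcam did not. Most of its cells had a UMI of each: 11 of 12 diabetic and 49 of 52 normoglycemic cells had Ptgs1, 12 and 50 had Hpgds, and 12 and 51 had Ltc4s.

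These few cells made up 6.29% of all Ptgs1 counts in the diabetic and 38.5% in the normoglycemic library, and 7.98% and 36.8% of all Ltc4s counts. Without them, conventional dendritic cells had 1.85 diabetic and 4.62 normoglycemic CPM of Ptgs1, 8.75 and 14.9 CPM of Hpgds, and 11.5 and 13.7 CPM of Ltc4s. Ltc4s was then no longer past the threshold (log2 ratio -0.26, against -1.37 with them). Ptgs1 and Hpgds kept their direction at log2 ratios of -1.30 and -0.77, with Ptgs1 below the level rule. With the libraries clustered separately, the log2 ratios in the class turned to 0.52 for Ptgs1, 0.13 for Hpgds and 0.70 for Ltc4s. A normoglycemic cluster of 57 cells led by Cd207, Mfge8, H2-M5 and Epcam was then left unnamed and stood outside the class.

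**Figure D4:**
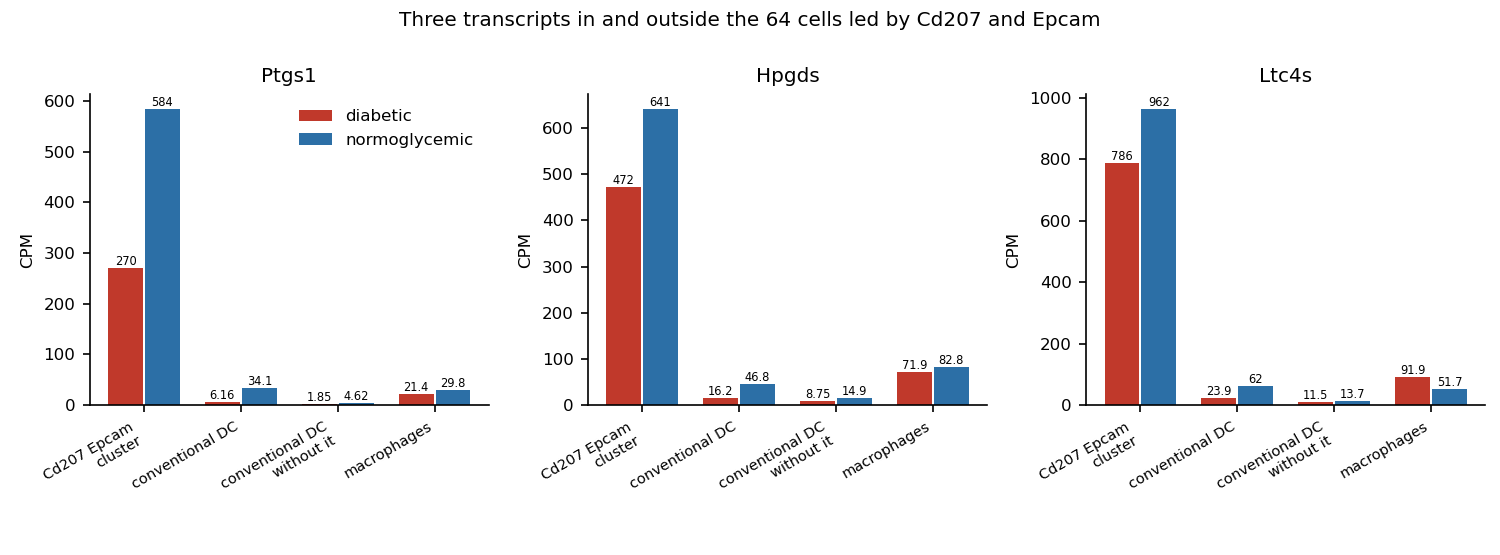
CPM of Ptgs1, Hpgds and Ltc4s, drawn without intervals, in the Cd207 and Epcam cluster, in all conventional dendritic cells, in those cells without the cluster, and in macrophages. Diabetic bars stand left of normoglycemic bars. Ltc4s is at 786 and 962 CPM in the cluster and at 11.5 and 13.7 CPM in conventional dendritic cells without it.

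The windows of the 3 genes that this group shares are given for comparison, as above, with the PU.1 core GAGGAAGT in capitals. It begins at base 227 of the Ptgs1 window, 24 bases before the start, and at base 202 of the Hpgds window, 49 bases before it; the Ltc4s window held none of the 9 motifs. Their positions are chr2:36230176-36230475 (plus strand, 50.7% G or C), chr6:65144681-65144980 (minus strand, 46.7%) and chr11:50238483-50238782 (minus strand, 58.7%).
Ptgs1: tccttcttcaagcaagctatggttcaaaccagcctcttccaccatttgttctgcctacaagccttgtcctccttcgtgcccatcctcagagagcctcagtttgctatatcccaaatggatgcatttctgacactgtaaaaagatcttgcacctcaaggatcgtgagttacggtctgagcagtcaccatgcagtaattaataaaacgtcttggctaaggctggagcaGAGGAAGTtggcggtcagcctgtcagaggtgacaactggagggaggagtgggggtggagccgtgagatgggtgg
Hpgds: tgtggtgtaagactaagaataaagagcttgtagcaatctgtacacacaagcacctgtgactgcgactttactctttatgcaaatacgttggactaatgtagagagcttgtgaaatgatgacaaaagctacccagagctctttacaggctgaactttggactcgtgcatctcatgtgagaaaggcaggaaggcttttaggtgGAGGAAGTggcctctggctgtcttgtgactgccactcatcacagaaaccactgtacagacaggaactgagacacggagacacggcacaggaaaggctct
Ltc4s: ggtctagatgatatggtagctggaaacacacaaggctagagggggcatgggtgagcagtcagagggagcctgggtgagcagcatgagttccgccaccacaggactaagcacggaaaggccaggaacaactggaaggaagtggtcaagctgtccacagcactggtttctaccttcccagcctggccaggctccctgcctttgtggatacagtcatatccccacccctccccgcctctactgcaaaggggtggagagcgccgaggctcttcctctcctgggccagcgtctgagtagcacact
The windows show no common run of the searched letters, and PU.1 cores occur in 3.20% of all windows.

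Ltc4s (chr11:50236461-50238616, minus strand), which joins leukotriene A4 to glutathione and so starts the cysteinyl leukotrienes, was higher in diabetic macrophages and in each of their clusters. The class had 91.9 diabetic and 51.7 normoglycemic CPM, a ratio of 1.78 (1.64 to 1.93) from 1371 and 961 counts. The Gpnmb cluster had 43.2 and 20.5 CPM, the cluster of Lyve1, Folr2 and Cd163 had 182 and 91.3 CPM, and the cluster of Mmp12 and Cx3cr1 had 120 and 60.6 CPM. All 3 clusters thus showed ratios between 1.98 and 2.10. A UMI was found in 36.1% of diabetic and 28.4% of normoglycemic macrophages, in 8.10% and 4.09% after thinning, and in 1.25% and 3.13% of B cells. In conventional dendritic cells the direction was the opposite, 23.9 diabetic and 62.0 normoglycemic CPM (ratio 0.386, 0.338 to 0.439), with the Cd207 and Epcam cells described above in it. Where the grouping placed a Cd207-led cluster among the macrophages, as it did under a stricter cell filter and with the 10 genes among the clustering genes, the macrophage log2 ratio was 0.20 and 0.14, against 0.83. The difference between the 2 classes was not tested.

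Alox5ap (chr5:149264767-149288153, plus strand), the protein that presents arachidonic acid to 5-lipoxygenase, had the largest ratio of the 3 members that met the level rule in neutrophils, the most abundant class. Neutrophils held 1216 CPM in 4827 diabetic cells and 585 CPM in 5274 normoglycemic cells, a ratio of 2.08 (2.04 to 2.13). Of all genes 20.2% were past the threshold upwards and 16.1% downwards in neutrophils, and of the 3 members measured 2 were higher. A UMI was found in 82.8% (81.8% to 83.9%) of diabetic and 66.1% (64.8% to 67.4%) of normoglycemic neutrophils, in 58.9% and 35.5% at 1000 UMIs per cell, and in 1.25% and 4.15% of thinned B cells. Monocytes (863 diabetic and 790 normoglycemic CPM, ratio 1.09), macrophages (701 and 579 CPM, 1.21) and conventional dendritic cells (959 and 825 CPM, 1.16) lay inside the threshold. Mature dendritic cells were past it with 254 and 166 CPM (ratio 1.53, 1.30 to 1.80); 11.0% of genes were higher and 15.9% lower there, and of 6 members 1 was higher and 1 lower.

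Within neutrophil clusters the Alox5ap difference was smaller. Of 6 clusters with at least 10 cells in each library, 5 were higher in the diabetic library and 1 lower, at ratios of 0.916 to 1.58. The Retnlg and Cstdc5 cluster had 1781 diabetic and 1744 normoglycemic CPM, the Mrgpra2b and Lrg1 cluster 1138 and 1023 CPM, and the Rdh12 and G0s2 cluster 870 and 949 CPM. The Spp1 and Hcar2 cluster had 417 and 356 CPM, the Plet1 and Lcn2 cluster 489 and 362 CPM, and the Rsad2 and Ifit1 cluster 976 and 619 CPM. The Rsad2 cluster alone was past 1.5-fold, at a ratio of 1.58. The clusters held very different numbers of cells: the Retnlg cluster 1421 diabetic and 233 normoglycemic cells, the Spp1 cluster 347 and 1801, and the Plet1 cluster 113 and 1814. When each normoglycemic cluster was given the share of cells it had in diabetic neutrophils, the log2 ratio of the class was 0.07, against 1.06 for the class as a whole. Another cluster of 371 diabetic and 1 normoglycemic cells had no counterpart.

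**Figure D5:**
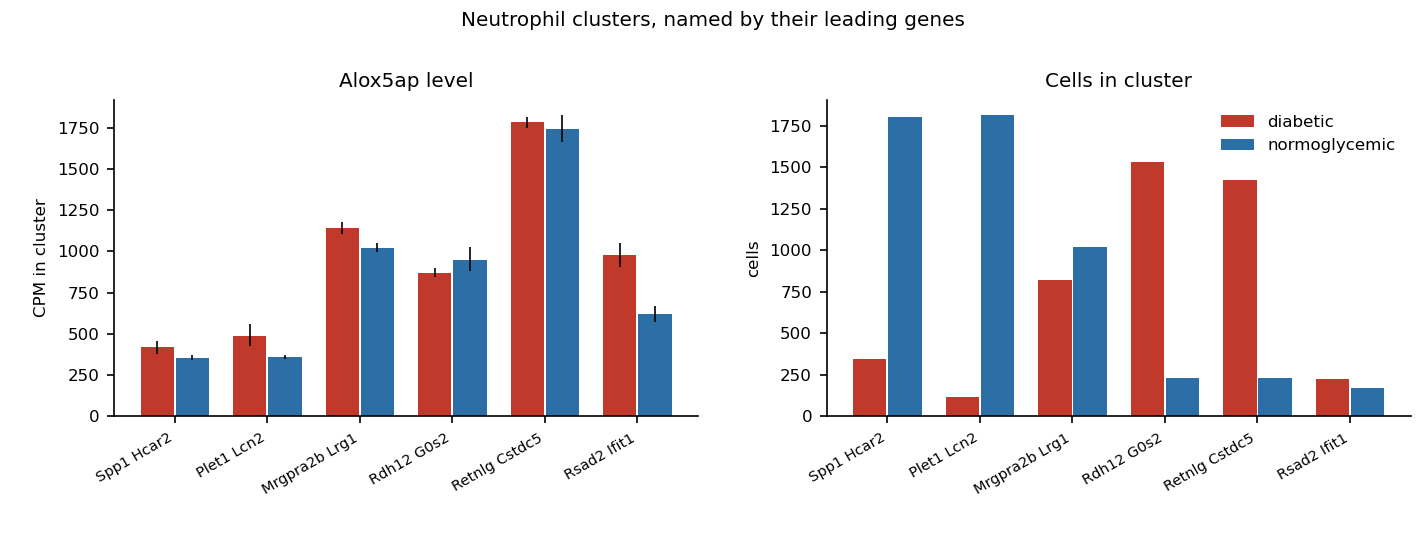
Alox5ap CPM with 95% Poisson intervals (left) and number of cells (right) in 6 neutrophil clusters named by their leading genes, diabetic bars left of normoglycemic bars. The Retnlg and Cstdc5 cluster has 1781 and 1744 CPM in 1421 and 233 cells, and the Spp1 and Hcar2 cluster 417 and 356 CPM in 347 and 1801 cells.

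Alox5 (chr6:116410077-116461178, minus strand), the 5-lipoxygenase itself, was higher in diabetic neutrophils and conventional dendritic cells. Neutrophils had 22.4 diabetic and 13.3 normoglycemic CPM, a ratio of 1.69 (1.45 to 1.96), and conventional dendritic cells 44.9 and 26.2 CPM, a ratio of 1.71 (1.51 to 1.95). Among dendritic clusters, the Cd209a cluster had 44.0 diabetic and 16.4 normoglycemic CPM and the cluster of Naaa, Xcr1 and Epcam 45.7 and 41.3 CPM, a difference between clusters that was not tested. The small Cd207 and Epcam group described above had 167 diabetic and 227 normoglycemic CPM of Alox5. It held 34 of the 569 diabetic and 195 of the 442 normoglycemic counts of the conventional dendritic class. Within neutrophils, as for Alox5ap, the clusters went their own ways: the Spp1 cluster had 13.4 and 6.57 CPM and the Retnlg cluster 27.5 and 61.8 CPM. Of the 6 clusters 2 were higher and 4 lower in the diabetic library, and the class log2 ratio was -0.75 with the clusters weighted in the same way. Macrophages, the leading class, had 67.5 diabetic and 59.0 normoglycemic CPM (ratio 1.14, 1.05 to 1.25), with the Lyve1, Folr2 and Cd163 cluster at 132 and 85.6 CPM. Mast cells had 156 and 101 CPM from 17 counts in each library, under the count rule.

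Lta4h (chr10:93453411-93484875, plus strand), the hydrolase that makes leukotriene B4, was the most evenly spread of the 10 genes, at 9.05 to 64.3 CPM over the diabetic and 9.70 to 53.6 CPM over the normoglycemic classes. Conventional dendritic cells had 40.1 diabetic and 34.0 normoglycemic CPM, alpha-beta T or NK cells 36.5 and 40.3, and macrophages 35.9 and 36.9 CPM, with ratios of 1.18, 0.906 and 0.974. Neutrophils, at 9.05 and 9.70 CPM, were the lowest of the 11 classes in both libraries, below the B cells at 15.4 and 17.96 CPM. Lta4h was past the threshold only in 2 small classes, type 2 innate lymphoid cells (50.7 diabetic and 25.6 normoglycemic CPM from 10 and 23 counts) and fibroblasts (38.9 and 24.0 CPM from 169 and 8 counts). Both intervals, 0.84 to 4.32 and 0.803 to 3.81, include 1.

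Alox15 (chr11:70344152-70352031, minus strand), the 12/15-lipoxygenase, which in mice is known from resident macrophages and eosinophils, was rare, and most of its counts lay in the normoglycemic library. The whole diabetic library held 45 counts in 22 barcodes and the normoglycemic library 415 counts in 130 barcodes. Conventional dendritic cells had 1.34 diabetic and 16.3 normoglycemic CPM, a ratio of 0.0826 (0.047 to 0.135), from 17 counts in 7 cells and 274 counts in 69 cells. The normoglycemic counts were spread over cells, with at most 27 in 1 cell, and lay mainly in the Cd209a cluster, at 2.96 diabetic and 26.0 normoglycemic CPM. Macrophages had 0.536 and 0.753 CPM, and B cells, fibroblasts, mast cells, type 2 innate lymphoid cells and gamma-delta or type 17 T cells had 0 counts in both libraries. Alox15 kept this direction and size in conventional dendritic cells under all 15 alternative settings, at log2 ratios of -4.09 to -3.13. Cells that no class name covers had 0.96 diabetic and 36.15 normoglycemic CPM of Alox15, the second above the conventional dendritic level. These came from 3 counts in 2 diabetic and 102 counts in 37 normoglycemic cells.

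Ptger4 (chr15:5206661-5244187, minus strand) encodes EP4, a prostaglandin E2 receptor that signals through cyclic AMP, and was past the threshold in 0 of 9 classes measured. Mature dendritic cells had the highest level, 158 diabetic and 188 normoglycemic CPM (ratio 0.841, 0.706 to 1.0), and a UMI in 64.9% and 68.4% of cells against 10.0% and 9.09% of B cells. Type 2 innate lymphoid cells had 101 and 106 CPM, macrophages 82.7 and 90.8, and alpha-beta T or NK cells 69.1 and 88.3 CPM. Monocytes came closest to the threshold, with 31.4 diabetic and 21.3 normoglycemic CPM (ratio 1.47, 1.27 to 1.72). The receptor was thus low in the Arg1 and Saa3 monocytes that held most Ptges, at 15.2 and 13.5 CPM, and higher in the Chil3 and Vcan monocytes, at 47.7 and 34.1 CPM. In macrophages the cluster of Lyve1, Folr2 and Cd163 had 147 and 132 CPM, against 45.9 and 53.4 CPM in the Gpnmb cluster.

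Most pairs lower in the diabetic library lay in lymphoid cells and fibroblasts. Of the 14 lower pairs in the 7 smaller classes, 12 had a level below that of the other cells of the same library. The exceptions were Ptges in fibroblasts (80.5 diabetic and 129 normoglycemic CPM) and Ltc4s in type 2 innate lymphoid cells (0 and 27.9 CPM). Alox5ap was at 15.2 diabetic and 110 normoglycemic CPM in type 2 innate lymphoid cells, at 22.9 and 91.4 CPM in gamma-delta or type 17 T cells, and at 52.7 and 114 CPM in B cells. Ptgs2 was at 142 and 367 CPM, 343 and 638 CPM, and 367 and 441 CPM in the same 3 classes. The neutrophil transcript S100a9 was also lower in the diabetic library in these cells, at 319 and 6979 CPM, 1801 and 5214 CPM, and 745 and 7220 CPM. In neutrophils themselves it was at 97810 diabetic and 85050 normoglycemic CPM. The part of S100a9-bearing RNA in these lymphoid values was not tested. Without the cells of highest doublet score 9 of the 17 pairs past the threshold in these classes kept their direction, and 8 of 9 in the 4 myeloid classes.

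The rule's background in these classes was also wide. All genes were past the threshold upwards and downwards at 5.64% and 15.1% in alpha-beta T or NK cells, where 0 members were higher and 2 lower of 5. The shares were 12.1% and 20.9% in type 2 innate lymphoid cells (1 and 4 of 6 members) and 4.62% and 16.2% in gamma-delta or type 17 T cells (0 and 2 of 4). They were 4.26% and 35.7% in B cells (0 and 2 of 6) and 18.1% and 14.2% in fibroblasts (1 and 3 of 6). In monocytes 6.95% of genes were higher and 6.87% lower, and 0 of the 5 members measured were past the threshold either way.

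The rest of the pathway was counted in 63 genes of 6 lists. In the 4 myeloid classes 91 gene and class pairs reached the level rule, of which 13 were higher and 6 lower in the diabetic library, 14.3% and 6.59%, where 6.48% and 6.80% of all genes in these classes were. Neutrophils had 3 of 11 higher and 2 lower, near the 20.2% and 16.1% of all genes there: more Anxa1, an annexin that restrains phospholipase A2, at 608 diabetic and 347 normoglycemic CPM, and more Cotl1 and Mgst1 (ratios 1.56 and 1.58), and less Abcc1 and Ptger2 (0.377 and 0.433). Monocytes had 5 of 25 higher and 0 lower, against 6.95% and 6.87% of all genes: the thromboxane synthase Tbxas1 (1.59), Prxl2b (1.66), the prostaglandin dehydrogenase Hpgd (1.60), the leukotriene-cleaving dipeptidase Dpep2 (2.13) and Mgst3 (1.88). Macrophages had 1 of 29 higher and 2 lower, against 2.19% and 3.77% of all genes: more Mgst1 (1.72) and less Ggt5 and Ephx1 (0.549 and 0.592). Conventional dendritic cells had 4 of 26 higher and 2 lower, against 3.01% and 4.82% of all genes: more Pla2g4a, the cytosolic phospholipase A2 (1.52), Hpgd (1.59), Gpr18 (1.62) and Ggt5 (1.67), and less Ptgir and Ephx1 (0.660 and 0.367). In the other 7 classes 17 pairs were higher and 33 lower of 106, where 9.52% and 19.6% of all genes were.

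The highest levels in each list were taken without the level rule, so some rest on few counts. Pla2g7 was at 1359 diabetic and 214 normoglycemic CPM in mast cells, Anxa1 at 850 and 937 CPM in fibroblasts, and Pla2g4a at 66.1 and 89.7 CPM in monocytes. Cyp4f18, a leukotriene B4 hydroxylase, was at 911 and 1043 CPM in neutrophils, Cotl1 at 498 and 444 CPM in macrophages, and Dpep1 at 399 and 63.0 CPM in fibroblasts. Among receptors, Fpr2 was at 450 and 390 CPM in neutrophils, the leukotriene B4 receptor Ltb4r1 at 273 and 183 CPM in gamma-delta or type 17 T cells, and Cysltr1 at 117 and 181 CPM in type 2 innate lymphoid cells. Prostanoid receptors were Ptgfr in fibroblasts (82.3 diabetic and 153 normoglycemic CPM), Ptgir in type 2 innate lymphoid cells (65.9 and 89.2) and Ptger3 in mast cells (36.7 and 59.5). The Ptger3 values came from 4 and 10 counts, under the level rule. Ptges3 was at 260 and 259 CPM in gamma-delta or type 17 T cells, the prostacyclin synthase Ptgis at 127 and 213 CPM in fibroblasts, and Cbr2 at 116 and 149 CPM in macrophages. For breakdown and transport, Abcc1 was at 79.9 and 118 CPM in monocytes and Slco2a1 at 21.6 and 39.0 CPM in fibroblasts. Hpgd was at 45.9 CPM in diabetic mast cells, from 5 counts, with 0 counts in normoglycemic ones, under the level rule. In conventional dendritic cells Hpgd was at 26.9 diabetic and 16.9 normoglycemic CPM, from 340 and 285 counts.

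Genes of like pattern were looked up over the 22 values of 11 classes in 2 libraries, which share cells and libraries and so give a description only. Ptgs2 ran most like Tgm2, Prdx5 and Clec5a (Pearson r of log2(CPM + 1) 0.941, 0.926 and 0.926), and Ptges like Pdpn, Vcan and Rhou (0.886, 0.883 and 0.845). Vcan, also a marker used to name monocytes, leads the monocyte cluster low in Ptges, so that likeness is between classes only. Alox5ap ran like Cd300a, Cd300c2 and Tyrobp (0.947, 0.933 and 0.933), and Alox5 like Rgs18, Mknk1 and Tbc1d14 (0.897, 0.832 and 0.812). Hpgds ran like Rnf144b, Lat2 and Cadm1 (0.897, 0.876 and 0.861), Ltc4s like Gatm, Colgalt1 and Cd207 (0.818, 0.816 and 0.787), and Ptgs1 like Cpq, Pttg1ip and Nfix (0.851, 0.84 and 0.809). Lta4h was nearest to Sdhb, Reep5 and Yipf1 (0.922, 0.92 and 0.90), Ptger4 to Zmiz2, Slc25a3 and Zfp217 (0.839, 0.828 and 0.821), and Alox15 to Cd209d, Cd209a and Xcr1 (0.753, 0.751 and 0.751). Xcr1 is among the leading genes of the other conventional dendritic cluster, while Alox15 lay mainly in the Cd209a cluster.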

How the data were processed

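Single-cell RNA of gingival cells was counted in 2 libraries of the Chromium 3' v3 kit, 1 per condition. The deposited matrices hold raw UMI counts per gene and cell, made by the authors with Cell Ranger 6.0.2 on mm10 per the submitters' processing notes; the matrix header names version 4.0.0. Mouse mm10 is GRCm38; gene coordinates are from GENCODE and promoters from RefSeq, and the strand setting of the counting is not given in the sources used here. Opposite-strand genes overlap Ptgs1, Hpgds, Alox5ap, Ltc4s and Ptger4, and a same-strand pseudogene overlaps Ptges. The genes overlapping Ptgs1, Hpgds and Ptges were not among the genes counted. Opposite-strand genes that overlap Alox5ap, Ltc4s and Ptger4 were counted, and whether reads were shared with them was not tested.

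From the counts, barcodes under 500 UMIs, under 200 genes or above 15% mitochondrial counts were dropped (236 diabetic and 332 normoglycemic). Scrublet in scanpy 1.11.5 marked 40 and 0 cells, too few to have worked; the 40 were removed, and the highest doublet scores were left out as an alternative. The 10 genes were kept out of the 2000 variable genes; both libraries were clustered together (30 components, 15 neighbours, Leiden resolution 1.0), without batch correction, into 29 clusters, named from 162 markers of 22 classes. Counts were summed per class and library and divided by the class total to CPM. Ratios carry exact conditional binomial 95% intervals, levels exact Poisson and shares exact Clopper-Pearson intervals; log2 ratios add 0.5 counts. A count of 0 allows up to 3 counts. The ratios, intervals and calling were tested on simulated Poisson counts drawn from class sums, which have no spread between mice. edgeR 4.0.16 and DESeq2 1.42.0 gave alternative scalings only.

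The members, lists and motifs were chosen with earlier results of these data known. All members were named, and of the pathway genes the 3 of highest CPM per list and those past 1.5-fold; outside the 4 myeloid classes the second kind are given as counts, a limit set after their values were seen. Like genes were the 3 of highest Pearson r among genes with at least 50 CPM in 1 value.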

Additional observations from a re-analysis of the deposited data

Results flagged for a closer look

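Alox5ap went past the threshold in opposite directions between classes, with log2 ratios of diabetic over normoglycemic of 1.06 in neutrophils and 0.61 in mature dendritic cells, and of -1.97 in gamma-delta or type 17 T cells, -2.64 in type 2 innate lymphoid cells, -1.10 in B cells and -0.81 in fibroblasts. Ltc4s did so with 0.83 in macrophages, and -1.37 in conventional dendritic cells and -3.49 in type 2 innate lymphoid cells, the last from 0 diabetic and 25 normoglycemic counts. With 1 library per condition these differences between classes were not tested.

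Alox15 was also found in cells that no class name covers, at 0.96 CPM in 276 diabetic and 36.15 CPM in 288 normoglycemic cells, from 3 and 102 counts. The matrices further hold 4 antibody capture features that no comparison uses, and barcodes with at least 100 counts of any 1 of the 4 numbered 225 in the diabetic and 391 in the normoglycemic library.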

How the results depend on the processing

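Log2 ratios of diabetic over normoglycemic are given below. Leaving the cells of highest doublet score out turned Ptgs2 to 0.33 in alpha-beta T or NK cells, 0.04 in gamma-delta or type 17 T cells and 0.53 in type 2 innate lymphoid cells, Ptges to 1.53 in macrophages, 1.04 in mature dendritic cells and 0.10 in fibroblasts, and Alox5ap to 0.61 in gamma-delta or type 17 T cells, 0.97 in B cells and 1.10 in fibroblasts. Clustering each library alone turned Ptgs1, Hpgds and Ltc4s in conventional dendritic cells to 0.52, 0.13 and 0.70. Marker gating turned Ptgs2 in type 2 innate lymphoid cells to 0.51 and Ptges in alpha-beta T or NK cells to 0.13. Mean CPM per cell turned Ptges to 0.13 in macrophages and 0.23 in fibroblasts, Hpgds in type 2 innate lymphoid cells to 0.32 and Alox5ap in fibroblasts to 0.13. Weighting the normoglycemic clusters to the diabetic mix (cluster weights) turned Alox5 in neutrophils to -0.75. Cells called male turned Ptgs2 in fibroblasts to 0.64, and Hpgds and Ltc4s in type 2 innate lymphoid cells to 1.67 and 1.67, which rest on 1 and 1 and on 0 and 0 counts and so show no direction. Cells called female turned Ptgs2 in type 2 innate lymphoid cells to 0.76, Ptges to 1.20 in macrophages, 0.84 in alpha-beta T or NK cells, 0.64 in B cells and 0.65 in fibroblasts, Alox5ap to -0.06 in mature dendritic cells, 0.00 in B cells and 2.77 in fibroblasts, and Lta4h in fibroblasts to -0.63. The female Ptges values in alpha-beta T or NK cells (0 and 0 counts) and B cells (2 and 2 counts) show no direction either.

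In the leading classes, Ptgs1 in macrophages was -1.18 under the stricter cell filter, -1.09 with the 10 genes among the clustering genes, 0.11 in male and -1.02 in female cells. Ptgs2 in monocytes was -0.10 with TMM, -0.11 with DESeq2 factors, 0.09 by mean CPM, -0.10 under the stricter filter, -0.18 with separate clustering, -0.12 without high doublet scores, 0.05 with cluster weights, and 0.07 and 0.95 in male and female cells. Ptges in monocytes was -0.35 by mean CPM, -0.63 with separate clustering, -0.59 by gating, -0.31 with cluster weights and 3.29 in female cells. Hpgds in macrophages was -0.41 under the stricter filter, 0.03 with separate clustering, -0.49 with the 10 genes clustered and -0.39 in female cells; Alox5 there was 0.02 with the 10 genes clustered and -0.16 in female cells. Alox5ap in neutrophils was 0.93 and 0.91 with TMM and DESeq2 factors, 1.01 by mean CPM, 1.12 in finer clusters, 0.07 with cluster weights, and 0.90 and 0.95 in male and female cells. Ltc4s in macrophages was 0.20 under the stricter filter, 0.14 with the 10 genes clustered, 0.96 with cluster weights, and 0.41 and 0.95 in male and female cells. Ptger4 in macrophages was 0.03 by mean CPM, -0.02 with separate clustering and -0.31 in female cells.

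The 7 higher pairs became 12 without high doublet scores, 3 with cluster weights, 4 in male and 12 in female cells, 19 without the level rule and 2 at 2-fold. The 19 lower pairs became 12 by mean CPM, 8 without high doublet scores, 38 without the level rule and 12 at 2-fold. Over 15 alternatives and 909 log2 ratios, 712 stayed within their counting interval, 166 moved and 31 turned. Only pairs past the threshold were counted as turned. A change of sign in any other pair, such as Ptges in female monocytes, was counted among the 166 that moved. The cause was not tested. No paired analysis was possible because each condition had 1 library. Depth limits the classes under 100 cells in a library.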

Other observations

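Cells with UMIs of both Siglecf and Ccr3, which are left unnamed, numbered 1 in the diabetic and 8 in the normoglycemic library. Alox15 had 0 counts in the diabetic cell and 26 counts in 6 of the normoglycemic cells, 685 CPM. Of the eosinophil markers, Epx had 0 counts in all analysed cells of both libraries. Prg2 had 0 counts in the cells with Siglecf and Ccr3, but 424 in the other diabetic and 35 in the other normoglycemic cells. With the normoglycemic library clustered alone, 68 cells formed a cluster led by Alox15, F5, Adamdec1, Siglecf, Serpinb2 and Ccr3, which had too few markers of any class to be named.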
